A study of Homo sapiens with 6 samples.

Results

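The numbered zinc finger genes of human chromosome 19 were examined for binding by GSX2, a homeodomain protein that specifies progenitors of the lateral ganglionic eminence, the part of the embryonic forebrain that forms the striatum. Members were the protein-coding genes of chromosome 19 in the RefSeq annotation of hg38 whose symbol is ZNF followed by a number, with or without a letter. This gave 246 genes, 17.0% of the 1445 protein-coding genes of the chromosome and among 19863 on chromosomes 1 to 22 and X. The data are ChIP-seq peaks (chromatin immunoprecipitation, then sequencing) from the established embryonic stem line H9, in which a doxycycline-responsive TRE3G promoter drives wild-type GSX2 bearing 2xFLAG. All libraries come from this genotype, were differentiated toward lateral ganglionic eminence-like progenitors, received doxycycline at 100 ng/mL for 12 hours from day 10 and were taken at day 10.5. Antibody M2 to FLAG was used in 3 replicates, so the binding is that of an induced, tagged protein. There is 1 group and no contrast between conditions, and neither the input libraries nor cells without the transgene were analysed here. The labels number the replicates without saying whether they are separate cultures, and part of their spread may be technical.

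Most of the ZNF genes of this chromosome encode proteins with an array of C2H2 zinc fingers, each of which contacts a few bases of DNA. Many also carry a KRAB domain, which recruits the corepressor TRIM28 and, through it, enzymes of histone H3 lysine 9 methylation. The genes arose by tandem duplication and lie in clusters, and many of their proteins bind and silence transposable elements. Homeodomain proteins such as GSX2 recognise short AT-rich sites with the core TAAT.

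Fold enrichment, the height of a peak over its background, is given as the authors deposited it. Each deposited peak interval was assigned through its strongest summit to the nearest protein-coding gene span, and intervals of the 3 replicates that overlapped by at least 1 bp were merged into a region. ZNF genes of chromosome 19 were nearest to 17, 12 and 13 intervals in replicates 1, 2 and 3, out of 9859, 7471 and 9122 intervals genome-wide. These 42 intervals made 25 regions, of the 165 regions on the chromosome. They belonged to 19 of the 246 genes, and the other 227 ZNF genes had none. In all, 6 regions held an interval of every replicate, 5 of 2 replicates and 14 of 1 replicate.

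Sequences of ZNF start sites that a region touched are shown first, because 3 of them share a sequence element. RefSeq windows of 300 bases, from 250 before a start to 50 after it, were at hand for 216 of the 246 genes (268 windows, build GRCh38.p14). Of these windows 6 overlapped a region (2.24%), those of ZNF561, ZNF790, ZNF432, ZNF331, ZNF784 and ZNF749. The share was 24 of 1276 for windows of other chromosome 19 genes (1.88%) and 839 of 22031 for all protein-coding genes (3.81%). Below are the windows of ZNF749 (chr19:57435075-57435374, plus strand), ZNF790 (chr19:36838338-36838637, minus strand) and ZNF331 (chr19:53520764-53521063, plus strand), read in the direction of the gene. Of the regions touching the 6 windows, that of ZNF749 was found in every replicate and each of the others in 1 replicate. The overlap of region and window ran from 13 bp at ZNF432 to 295 bp at ZNF749. Capitals mark each match to TACATTNCCCAGA, searched on both strands.
ZNF749: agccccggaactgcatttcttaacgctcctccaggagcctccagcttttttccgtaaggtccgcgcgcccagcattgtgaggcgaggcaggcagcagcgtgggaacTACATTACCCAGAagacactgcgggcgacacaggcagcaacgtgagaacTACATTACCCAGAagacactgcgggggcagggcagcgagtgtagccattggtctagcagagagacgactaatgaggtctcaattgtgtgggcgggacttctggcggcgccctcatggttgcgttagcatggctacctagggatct
ZNF790: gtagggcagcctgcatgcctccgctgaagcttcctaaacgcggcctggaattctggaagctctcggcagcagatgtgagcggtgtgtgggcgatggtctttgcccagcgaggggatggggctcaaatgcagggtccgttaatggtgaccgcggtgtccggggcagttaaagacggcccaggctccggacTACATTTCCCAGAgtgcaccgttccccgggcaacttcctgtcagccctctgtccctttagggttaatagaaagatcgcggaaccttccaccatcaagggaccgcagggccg
ZNF331: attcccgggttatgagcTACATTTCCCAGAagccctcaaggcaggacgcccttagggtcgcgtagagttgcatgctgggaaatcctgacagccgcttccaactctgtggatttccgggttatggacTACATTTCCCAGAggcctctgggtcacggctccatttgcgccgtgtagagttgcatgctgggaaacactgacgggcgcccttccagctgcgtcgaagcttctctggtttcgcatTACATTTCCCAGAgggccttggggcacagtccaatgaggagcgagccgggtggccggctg
It comes from the longest word (15 letters) that at least 3 of the 6 windows shared with at most 1 mismatch, with N where copies differ and differing letters at its ends removed. It was thus chosen on these windows, and its presence in 3 of the 6 is no result. It resembles part of the known recognition site of ZNF143, a zinc finger activator of promoters. ZNF749 held 2 copies, ZNF790 held 1 and ZNF331 held 3. All lay inside the peak interval except the copy of ZNF331 nearest to the start.

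The word also occurred in ZNF start windows that no region touched. It was found in 21 of those 262 windows (8.02%, 95% Wilson interval 5.30 to 11.9%), against 3 of 1276 windows of other genes of the chromosome (0.235%, 0.0800 to 0.689%) and 42 of 22031 windows of all protein-coding genes (0.191%). These 42 include all 24 windows of chromosome 19 ZNF genes with the word. Of the 24 ZNF windows with the word, 21 thus had no region, while 262 of all 268 ZNF windows had none. Over all protein-coding genes the word was in 6 of 839 windows that overlapped a region (0.715%) and 36 of 21192 that did not (0.170%). The 6 include the 3 windows on which the word was chosen. Some windows of a gene overlap each other, and the intervals cover counting error only.

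The palindromic homeodomain site TAATTA was rare in ZNF start windows, and the shorter core TAAT was about as frequent as over all genes. The palindrome TAATTA occurred in 5 of the 268 ZNF windows (1.87%), 19 of 1276 windows of other chromosome 19 genes (1.49%) and 747 of 22031 windows of all genes (3.39%). Among windows that overlapped a region it was present in 73 of 839 over all genes (8.70%). It was present in 1 of the 6 ZNF windows, that of ZNF784, and there it lay outside the peak interval. The shorter core TAAT, or ATTA on the other strand, occurred in 41.4% of ZNF windows, 33.7% of windows of other chromosome 19 genes and 42.7% of all windows. Among windows that overlapped a region it occurred in 575 of 839 over all genes (68.5%) and in 4 of the 6 ZNF windows. This like share counts whole windows, whether or not the core lay inside the peak interval. The window of ZNF749 had 3 sites, those of ZNF790 and ZNF784 had 2 each and that of ZNF331 had 1. The sites of ZNF749 lay inside the interval. Those of ZNF784, which are parts of its palindrome, and of ZNF331 lay outside it, as did 1 of the 2 in ZNF790. Position was not counted over all genes. These are matches of letters and were not tested as binding sites.

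Of the 6 regions found in every replicate, 2 lay within 1 kb of an end of their gene span. At ZNF681, fold enrichment was 6.71, 14.1 and 9.28 in replicates 1, 2 and 3 (mean 10.0 ± 3.8, SD, n = 3; chr19:23758185-23758574). Its summit lay 549 bp inside the gene, downstream of the listed start. Replicate 2 was the high value here, 2.11 times replicate 1. At ZNF43, a member of the large cluster beside the centromere, fold enrichment was 5.85, 4.55 and 5.88 (5.43 ± 0.76; chr19:21852263-21852553). This region lay 273 bp before the upstream end of the gene span and was the weakest of all 44 regions of chromosome 19 found in every replicate. Its −log10 q in replicate 2 was 3.00, the smallest in that list.

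The region of ZNF749 lay at a start inside the gene. Fold enrichment was 12.3, 8.24 and 6.96 in replicates 1, 2 and 3 (mean 9.18 ± 2.81, SD, n = 3; chr19:57435080-57435515). The 3 summits fell within 18 bp of each other, and their median was 13 bp before the start listed for the gene, although it lies 6.74 kb inside the gene span. It is therefore not counted below among regions at gene ends. Replicate 1 stood highest, and −log10 q was 25.8, 10.6 and 11.6, well above the smallest values in the lists, which are close to 3.

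Outside gene spans, ZNF552 and ZNF77 had regions of every replicate. Fold enrichment 3.76 kb from ZNF552 was 8.90, 6.34 and 8.30 (7.85 ± 1.34; chr19:57803114-57803614). Fold enrichment 6086 bp before the start of ZNF77 was 5.70, 9.06 and 4.33 (6.36 ± 2.43; chr19:2950849-2951306). The summits at ZNF77 were spread over 200 bp, against 26 bp at ZNF552. Replicate 3 at ZNF77 ranked at 0.918% of its list by fold enrichment, with a −log10 q of 3.16, near the smallest value listed.

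ZNF536 had the most regions of any member, most of them deep inside the gene. It encodes a zinc finger protein of the developing brain that represses neuronal differentiation, and it stands alone, with no other member within 500 kb. Other members also stand alone, and of the 14 outside clusters of at least 5 genes ZNF536 alone had a region. Its span of 488 kb held or neighboured 6 regions, in a territory of 810.5 kb. Territory is the stretch of chromosome for which a gene is the nearest protein-coding span. The strongest reached 17.7, 15.4 and 10.8-fold in replicates 1, 2 and 3 (14.6 ± 3.5; chr19:30649955-30650401), with summits within 21 bp, 63.4 kb inside the downstream end. It ranked 6 of the 44 regions of the chromosome found in every replicate and 458 of 3537 such regions genome-wide. The other 5 ZNF regions of every replicate ranked between 1529 (ZNF681) and 3485 (ZNF43).

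The remaining regions of ZNF536 were weaker and not found in replicate 3. A region of chr19:30652142-30652531, 61.2 kb inside the same end, reached 7.96 and 9.21-fold in replicates 1 and 2. Another at chr19:30370041-30370250 reached 5.38 and 9.75-fold in the same replicates and lay 2.21 kb before an internal start. Single-replicate regions were seen 833 bp before the first start (6.79-fold, replicate 1), 221.4 kb inside the gene (6.83-fold, replicate 1) and 2.12 kb inside its downstream end (6.34-fold, replicate 2). Replicates 1 and 2 thus gave ZNF536 5 and 4 intervals and replicate 3 gave 1. Among the chromosome's genes of longest territory, TSHZ3 (916.5 kb) had 3 regions, UQCRFS1 (2702 kb) had 2 and CACNA1A (438.5 kb) had 1.

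**Figure D1:**
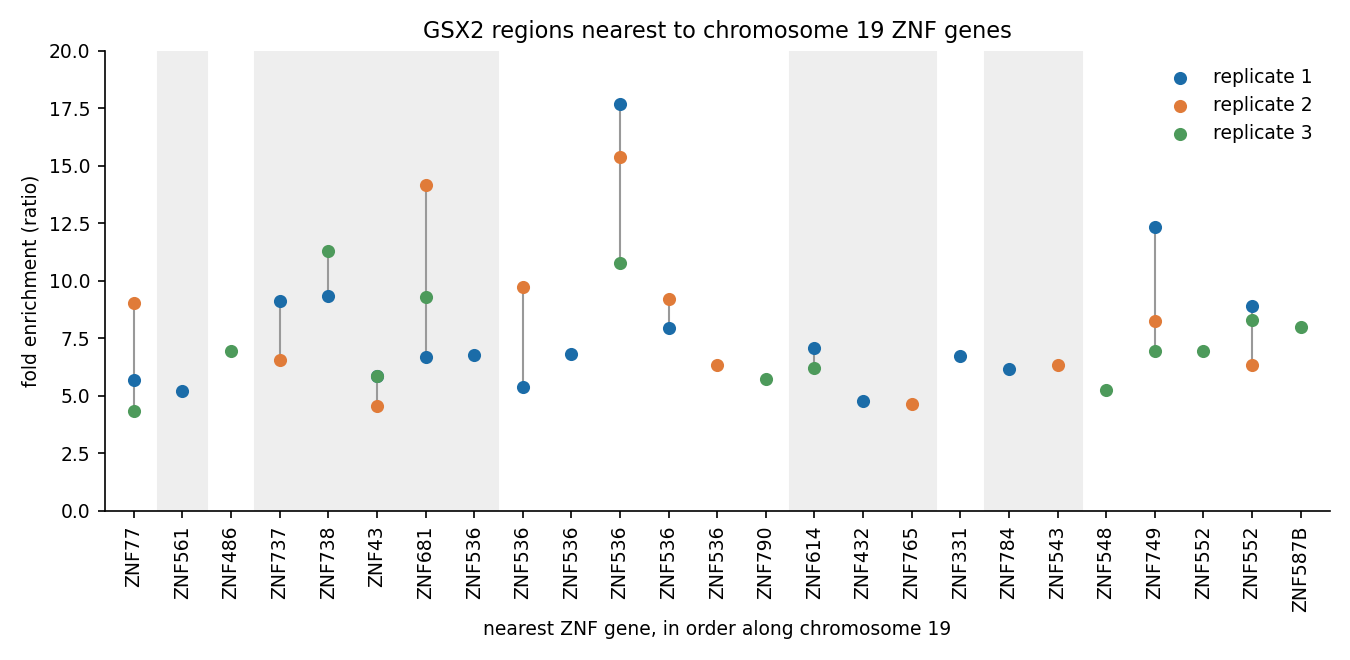
Fold enrichment (ratio over background, as deposited) of the 25 regions nearest to chromosome 19 ZNF genes, in order along the chromosome. Each point is the strongest interval of 1 replicate, a missing point means no peak was called, grey lines join replicates, and grey bands mark regions within 1 kb of an end of the gene. The ZNF536 region of 14.6-fold stands highest, and 14 of the 25 regions have a single point.

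Regions of 2 replicates at other genes all lay at gene ends. At ZNF738, 175 bp outside the span, fold enrichment was 9.35 in replicate 1 and 11.3 in replicate 3 (chr19:21358599-21358956). This was the second highest mean among the 25 regions, yet no interval was called in replicate 2. At ZNF737, 867 bp downstream of the listed start, it was 9.14 in replicate 1 and 6.55 in replicate 2 (chr19:20564787-20565025). At ZNF614, where the summits lay 556 and 333 bp before the start, it was 7.09 in replicate 1 and 6.22 in replicate 3 (chr19:52028665-52029056). The ZNF614 region also lay inside the noncoding gene LOC112268244, and that of ZNF737 inside LOC105372316.

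The 14 regions of 1 replicate ranged from 4.66 to 8.01-fold, with a highest −log10 q of 9.62. Of them, 6 came from replicate 1, 3 from replicate 2 and 5 from replicate 3. The strongest was 1.29 kb from ZNF587B (8.01-fold, replicate 3), followed by regions 92.3 kb from ZNF486 and 8.42 kb from ZNF552 (both 6.94-fold, replicate 3). Regions before the start were called once at ZNF561 (253 bp), ZNF432 (372 bp), ZNF784 (388 bp) and ZNF765 (654 bp), and 155 bp after it at ZNF543. ZNF331, an imprinted gene, and ZNF790 had theirs near internal starts, 306 bp before and 40 bp after, and ZNF548 had a region 3.72 kb beyond its span. An interval of 4.89-fold in replicate 1 lay inside both ZNF302 and SCGB2B2 and was assigned to SCGB2B2, whose end was nearer. The single-replicate regions of ZNF561, ZNF432, ZNF784, ZNF765, ZNF543, ZNF331, ZNF790 and ZNF548 are named so that every member with a region is listed, and this was decided after their values were seen.

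Of the ZNF genes in clusters, 18 of 232 had a region, beside 1 of 14 outside them and 142 of all 1445 genes of the chromosome (9.83%). Members less than 500 kb apart formed 10 clusters of at least 5 genes, with 232 of the 246 genes and 19 of the 25 regions. The clusters from ZNF653 to ZNF791 (25 genes), from ZNF575 to ZNF180 (23 genes) and from ZNF302 to ZNF792 (5 genes) had 0 regions. The cluster from ZNF565 to ZNF573 had 1 region for 26 genes, at ZNF790. The cluster from ZNF101 to ZNF254, which spans 4.46 Mb beside the centromere, had 5 regions at 5 of 37 genes, 4 of them at gene ends. At the far end of the long arm, the cluster from ZNF264 to ZNF446 had 6 regions at 5 of 43 genes, of which 1 was at a gene end. The cluster from ZNF175 to ZNF331 had 4 regions at 4 of 39 genes. The counts are small, differences between clusters were not tested, and a cluster with 0 regions is not shown to differ from the rest.

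**Figure D2:**
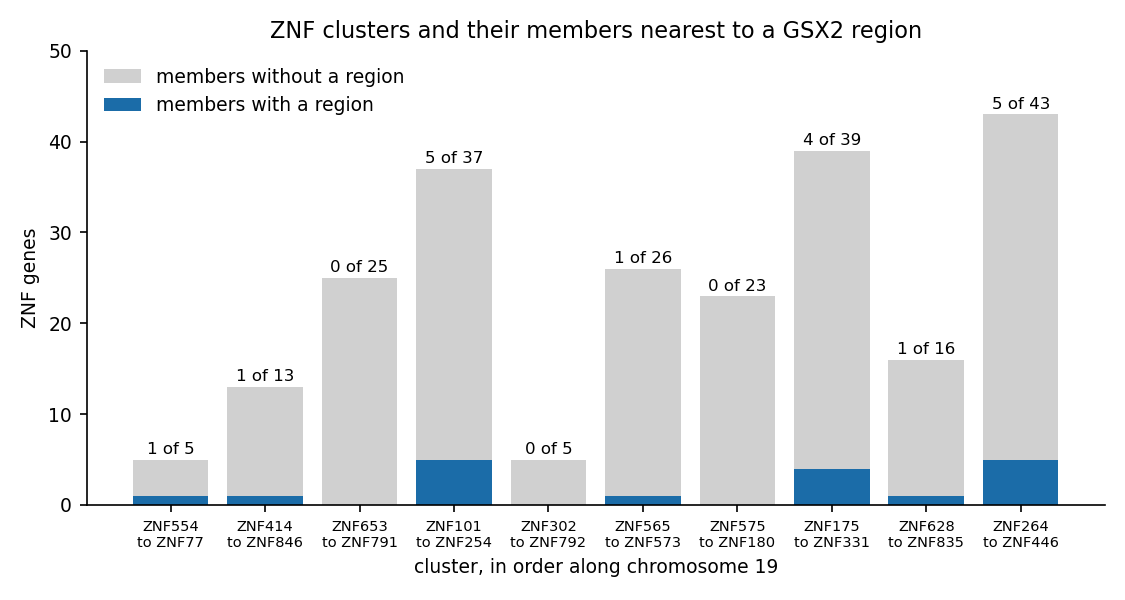
Number of ZNF genes in each of the 10 clusters of at least 5 members, named by first and last gene in order along chromosome 19. The blue part counts members nearest to a region of any replicate, and the label gives that count of all members. The clusters of 25 and 23 genes have none.

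Against the other genes of the chromosome, fewer ZNF genes had a region for the territory they cover, and the gap lay mostly among genes of long territory. A region of any replicate was nearest to 19 of 246 ZNF genes (7.72%, 95% Wilson interval 5.00 to 11.7%) and to 123 of 1199 other genes (10.3%, 8.67 to 12.1%). The background over all 1445 genes of the chromosome was 9.83%, and over the genome 32.7%. ZNF genes have longer territories, with a median of 37.8 kb against 22 kb. Weighted to the ZNF genes' territories in 5 bins, the share of other genes with a region was 14.1%, which corresponds to 34.6 genes where 19 were found. With regions of at least 2 replicates the shares were 9 of 246 (3.66%, background 4.29% on the chromosome and 20.2% in the genome) against 5.99%, and with regions of every replicate 6 of 246 (2.44%, background 2.63%) against 3.90%. Among genes with territories of 25.1 to 63.2 kb, 10 of 122 ZNF genes (8.20%) and 45 of 407 other genes (11.1%) had a region of any replicate. For regions of every replicate the order turned, with 4 of 122 (3.28%) and 12 of 407 (2.95%). The shares for recurrent regions are near the background, and genes are not replicates, so no test was made over them.

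In the bin of longest territories (50 kb and more), 6 of 79 ZNF genes had a region (7.59%, 3.53 to 15.6%) and 53 of 210 other genes (25.2%, 19.8 to 31.5%). In the other 4 bins the differences were smaller and the intervals, which cover counting error only, overlapped. Below 11 kb, 0 of 8 ZNF genes and 10 of 281 other genes (3.56%) had a region, and from 11 to 20 kb it was 2 of 33 (6.06%) and 20 of 256 (7.81%). With territories of 20 to 31.5 kb, 5 of 49 ZNF genes (10.2%) and 17 of 240 other genes (7.08%) had one. With 31.5 to 50 kb, it was 6 of 77 (7.79%) and 23 of 212 (10.8%). The contrast between the groups thus rests mostly on the longest bin, which is a description and was not tested. ZNF254 (2678.5 kb, across the centromere), ZNF507 (548.5 kb) and ZNF91 (246.5 kb) had the longest territories without a region.

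**Figure D3:**
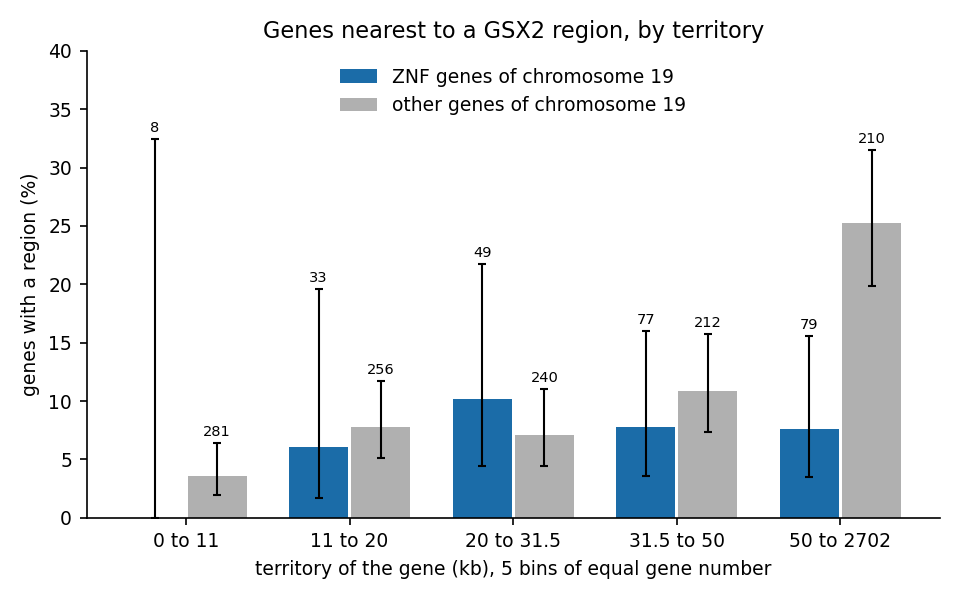
Share of genes nearest to a region of any replicate, in percent, for ZNF genes (blue) and other protein-coding genes (grey) of chromosome 19, in 5 bins of territory in kb. Bars start at 0, lines are 95% Wilson intervals (counting error only) and the numbers above them are genes per bin. The groups differ most in the longest bin, 7.59% against 25.2%.

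Per Mb of territory, intervals were fewer at ZNF genes in each replicate. ZNF genes had 1.06, 0.751 and 0.814 intervals per Mb in replicates 1, 2 and 3, and other genes had 2.11, 1.502 and 2.09. The mean was 0.876 ± 0.166 against 1.90 ± 0.35 (SD, n = 3), a difference of -1.02 ± 0.26, lower in 3 of 3 replicates (exact two-sided sign-flip permutation test, p = 0.25, the smallest that 3 replicates can give). The territories of ZNF genes, which include stretches between genes, made up 27.3% of the chromosome and held 14.7% of its 285 intervals. With intervals and territory both limited to 100 kb from a span, which leaves out most of the centromere, the densities were 1.08 and 2.02 per Mb. Among genes with territories of 25.1 to 63.2 kb, the middle range of the ZNF genes, they were 1.39 ± 0.24 and 1.69 ± 0.38, and ZNF genes were lower in 2 of 3 replicates (exact permutation p = 0.50).

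Close to gene ends the density at ZNF genes was like that at other genes, while away from ends it was lower. Within 1 kb of an end there were 9.79, 5.44 and 4.35 intervals per Mb at ZNF genes and 6.99, 4.99 and 6.99 at other genes (means 6.53 ± 2.88 and 6.32 ± 1.15, SD, n = 3). The difference of 0.203 ± 2.728 changed sign between replicates and was smaller than their spread (exact two-sided sign-flip permutation test, p = 0.75). It also changed sign with windows of 500 bp (-1.46) or 2 kb (-0.751), without ZNF536 (-0.132), without replicate 1 (-1.10) and among genes of like territory (-0.293). Elsewhere in the territory there were 0.531, 0.465 and 0.598 intervals per Mb at ZNF genes and 1.61, 1.14 and 1.58 at other genes (means 0.531 ± 0.066 and 1.44 ± 0.26). That difference of -0.910 ± 0.209 held in 3 of 3 replicates (p = 0.25 by the same exact test). Among genes of like territory it was 0.922 against 1.24 per Mb.

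**Figure D4:**
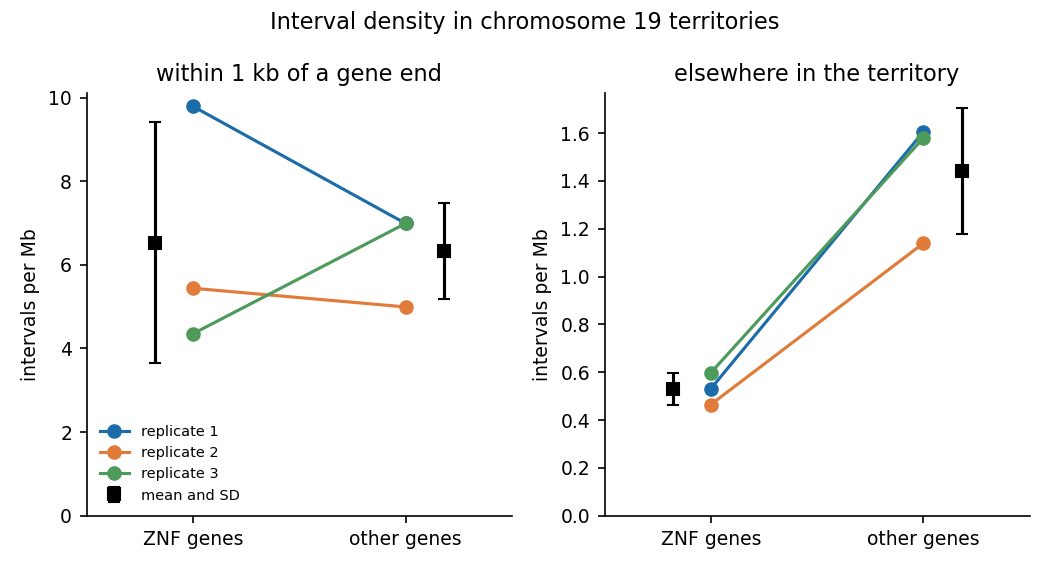
Intervals per Mb of territory at ZNF genes and at other genes of chromosome 19, within 1 kb of a gene end (left) and elsewhere (right), on separate scales. Each line joins the values of 1 replicate, and squares with bars are means with SD over 3 replicates. The lines cross on the left and all rise from ZNF to other genes on the right, from a mean of 0.531 to 1.44 per Mb.

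The share of intervals at gene ends was higher at ZNF genes in some replicates only. It was 9 of 17 (52.9%), 5 of 12 (41.7%) and 4 of 13 (30.8%) in replicates 1, 2 and 3, against 31.1%, 31.2% and 31.5% at other genes of the chromosome. The difference was 10.5 ± 11.3 percentage points (SD, n = 3), higher in 2 of 3 replicates (exact two-sided sign-flip permutation test, p = 0.50). Without ZNF536, whose regions lie mostly deep inside the gene, the shares were 66.7, 62.5 and 33.3%, higher in 3 of 3 replicates (exact permutation p = 0.25). Counting the ends of noncoding genes too, the mean difference shrank to 1.80 points, and with a window of 500 bp to 1.01 points.

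Merged, 11 of the 25 ZNF regions (44.0%, 95% Wilson interval 26.7 to 62.9%) and 47 of the 140 other regions (33.6%, 26.3 to 41.7%) lay within 1 kb of an end. Strand was listed for 10 of these 11, and all 10 were at the upstream end of their gene. Among the other genes it was listed for 39 of 47, with 31 at the upstream and 8 at the downstream end. The ZNF distances ran from 155 bp at ZNF543 to 879 bp at ZNF737, and the next region outward lay 1286 bp from ZNF587B. Of the 11, 8 were outside the gene span and 3 inside.

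Fold enrichment was slightly lower at ZNF genes, a gap not seen among genes of like territory. Its median was 6.79, 7.39 and 6.94 in replicates 1, 2 and 3 at ZNF genes and 7.62, 7.74 and 7.57 at other genes. The means of these medians were 7.04 ± 0.31 and 7.64 ± 0.08 (SD, n = 3), a difference of -0.602 ± 0.242 in the linear ratio, lower in 3 of 3 replicates (exact two-sided sign-flip permutation test, p = 0.25). Among genes with territories of 25.1 to 63.2 kb the medians averaged 7.53 and 7.44, and ZNF genes were the higher in 2 of 3 replicates (exact permutation p = 0.75). Within each list, the median ZNF interval ranked at 44.3, 44.5 and 42.4% of the genome-wide order of fold enrichment. Of the regions, 6 of 25 ZNF regions (24.0%, 11.5 to 43.4%) and 38 of 140 other regions (27.1%, 20.5 to 35.0%) were found in every replicate. The order turned without replicate 3 (45.0% against 37.5%) and among genes of like territory (36.4% against 24.5%).

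Without matching of territory, the share of ZNF genes with a region was near the background on chromosome 19 and elsewhere. Of 263 ZNF genes of other chromosomes, 77 had a region of any replicate (29.3%, near the genome background of 32.7%) and 29 had one of every replicate (11.0%, background 12.3%). On chromosome 19 the share of ZNF genes with a region of any replicate was 7.72%, beside 9.83% of all its genes, ZNF genes included. Both were below the genome background of 32.7%. Territories were not matched here, and no difference was tested. Weighted to the ZNF genes' territories, the share of other chromosome 19 genes was 14.1%, as given above. The 21 other zinc finger genes of chromosome 19, with symbols such as ZFP, ZSCAN, ZIM and ZBTB, had 0 regions, with a 95% Wilson interval of 0 to 15.5% that includes the chromosome's background of 9.83%.

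Of 30 genes for cofactors of KRAB repression, 12 had a region of any replicate (40%, 95% Wilson interval 24.6 to 57.7%, which includes the genome background of 32.7%) and 4 had one of every replicate (13.3%, against the genome background of 12.3%). TRIM28, the cofactor that KRAB domains bind, had 0 regions. MPHOSPH8, a subunit of the HUSH silencing complex, had a region 470 bp from an end, of 13.4, 16.5 and 13.0-fold in replicates 1, 2 and 3 (14.3 ± 2.0, SD, n = 3; chr13:19633021-19633481). TASOR, another HUSH subunit, had one 19.4 kb away (8.24 ± 1.52-fold). The region at TRIM33, a relative of TRIM28, averaged 8.17 ± 1.10-fold and that of GATAD2A, a NuRD complex gene on chromosome 19, 7.52 ± 0.61-fold, both inside the gene.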

How the data were processed

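GSX2 binding was measured by FLAG ChIP-seq in 3 replicates of 1 group. MACS3, Bowtie2, Trim Galore, deepTools, SAMtools and build hg38 are named per the submitters' processing notes. Versions, settings and the peak-calling control were not given in the sources used here for any tool. The authors deposited 1 peak list per replicate, with the fold enrichment of each summit as a linear ratio and its significance on −log10 scales (p and q). A deposited integer score repeats −log10 q on a scale of 10 and entered no test. Every −log10 q was at least 3. Without read counts the depth of each library is unknown, and whether missing peaks follow depth was not tested.

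With Python 3.11.15, pandas 2.3.3, NumPy 2.4.6 and SciPy 1.17.1, intervals with several summits were reduced to the summit of highest fold enrichment and assigned to the nearest protein-coding span of RefSeq GRCh38.p14. A summit inside several spans went to the span with the nearest end. Read-through and divergent-transcript entries (6 on chromosome 19) were left out. Territories were measured on a 500 bp grid. Comparisons between ZNF and other genes were made per replicate with an exact sign-flip test, which cannot go below 0.25 with 3 replicates. Shares have 95% Wilson intervals. The assignment to genes and the merging of intervals were tested on simulated sites, and the sign-flip test on set values.

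Genes named were those of regions of every replicate, of the strongest regions of 2 and of 1 replicate, those with most regions or with a recurrent region at an end, and the 3 longest territories without a region. TRIM28 and cofactors with a region of every replicate were named too. The word searched in start windows was found by a script on the 6 windows that a region touched. The members, lists and rules were chosen with earlier results of these data known. Start-site strands came from the RefSeq windows, which were read for 216 of the 246 genes. The planned count of zinc fingers per protein was not run, since protein sequences were not used here.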

Additional observations from a re-analysis of the deposited data

How the results depend on the processing

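Of 103 values recomputed under alternatives, 91 kept their direction and size within the limits set, 5 moved and 7 changed direction. The 7 were 6 of the density near gene ends and 1 of median fold enrichment. Turns of order in the share of regions found in every replicate, given below, are not among these 7. A value counted as kept could still shrink, as the gap in the share at ends did with a window of 500 bp, from 10.5 to 1.01 points. With a −log10 q of at least 10, 9 ZNF regions remained, 3 of them in every replicate, and the gap in genes with a region became -2.97 percentage points, from -6.35. With regions of at least 2 replicates it was -2.33 points. Leaving out 1 replicate gave 19 to 22 regions, 6 to 9 of them in every replicate used, a share of 31.6 to 45.0%. Its order against other genes turned without replicate 3 (45.0% against 37.5%) and among genes of like territory (36.4% against 24.5%), from 24.0% against 27.1%. Without 1 replicate the gap in genes ran from -5.86 to -4.52 points (-2.11 to -1.35 for regions of every replicate used), the density difference from -1.16 to -0.899 per Mb, the gap in the share at ends from 4.86 to 16.1 points and that in median fold enrichment from -0.730 to -0.489.

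The density difference near gene ends was 0.203 per Mb and turned negative with −log10 q of at least 10 (-0.487), windows of 500 bp (-1.46) or 2 kb (-0.751), without ZNF536 (-0.132) and among genes of like territory (-0.293). Leaving out 1 replicate gave -1.10 (without replicate 1) to 1.62 per Mb near ends and -1.03 to -0.828 elsewhere. The gap in median fold enrichment turned to 0.0858 among genes of like territory. The cause of these changes was not tested. The settings without ZNF536, with like territory and with territory limited to 100 kb were chosen after seeing the data. No paired analysis was possible because only the ChIP group has peak lists, and the input libraries that share its replicate numbers have no values here. The permutation test cannot pass 0.05 with 3 replicates, so its p-values say nothing about stability.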
